A study of Mus musculus with 6 samples.

Results

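The Fc receptor genes Fcgr1, Fcgr2b, Fcgr3, Fcgr4, Fcgrt and Fcer2a, the receptor chain gene Fcer1g, the kinase gene Syk and the adaptor gene Hcst were followed in mouse eosinophils treated with extracellular vesicles (EVs). These 9 genes were chosen by name, and 8 of them were among the 16254 genes of the deposited count table. Fcer2a was not listed there and was not analysed here. All 8 passed the filter on low counts, which left 13498 genes for testing. Among them, Hcst was higher in EV- versus sham-treated eosinophils, Fcgr4 and Fcgrt were lower, and 5 genes did not pass an adjusted p of 0.01.

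Eosinophils were grown from the bone marrow of C57BL/6 mice between 6 and 12 weeks old, first with FLT3 ligand and stem cell factor and then with IL-5. The EV group received EVs from activated Th2 cells at 5000000000 per mL for 24 h, and the sham group received unconditioned medium taken through the same isolation steps. Bulk RNA was sequenced from 3 cultures of each group. The labels call these cultures biological replicates but do not say whether they came from separate animals. The tests therefore set the difference between groups against the variation between these cultures, whatever its source.

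Fc receptors bind the constant part of antibodies. The activating IgG receptors encoded by Fcgr1, Fcgr3 and Fcgr4 pair with the Fcer1g chain, whose ITAM motif is phosphorylated by Src family kinases and then binds Syk. The IgG receptor encoded by Fcgr2b carries an inhibitory motif that recruits the lipid phosphatase Inpp5d and restrains this signal. Fcgrt encodes the heavy chain of the neonatal Fc receptor FcRn, which pairs with beta-2 microglobulin (B2m) and protects internalized IgG from degradation. Hcst encodes DAP10, a membrane adaptor that binds phosphoinositide 3-kinase, and Fcer2a encodes CD23, the low-affinity IgE receptor.

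The genes of 4 members lie together on chromosome 1. In GENCODE annotation of GRCm38, Fcgr2b (chr1:170958617-170976547, minus strand), Fcgr4 (chr1:171018920-171029761, plus strand), Fcgr3 (chr1:171051174-171064935, minus strand) and Fcer1g (chr1:171229572-171234365, minus strand) follow each other over 275.7 kb. Fcgr4 thus sits between Fcgr2b and Fcgr3, 42.4 kb from the former and 21.4 kb from the latter. Fcgr1 lies apart (chr3:96282909-96293969, minus strand), as do Fcgrt (chr7:45092990-45103851, minus strand) and Syk (chr13:52583173-52648792, plus strand). Hcst (chr7:30417712-30419854, minus strand) lies tail to tail with the related adaptor gene Tyrobp on the plus strand, with 126 bases between them.

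The 250 bases upstream of the RefSeq start (GRCm38.p6) are given for the 2 members that were lower with EVs, Fcgr4 and Fcgrt, and for Fcgr1, the remaining member of low abundance. The motifs searched, on both strands, were TTC and GAA separated by 3 bases (TTCNNNGAA) or by 4 bases, the spacings bound by STAT factors, and GAGGAAGT, an ETS site of the kind bound by PU.1. They do not overlap in these windows. Capitals mark a match, which on the strand shown reads as TTCNNNGAA in Fcgr1 and as the reverse complement of GAGGAAGT in Fcgr4.
Fcgr1, chr3:96293970-96294219, minus strand: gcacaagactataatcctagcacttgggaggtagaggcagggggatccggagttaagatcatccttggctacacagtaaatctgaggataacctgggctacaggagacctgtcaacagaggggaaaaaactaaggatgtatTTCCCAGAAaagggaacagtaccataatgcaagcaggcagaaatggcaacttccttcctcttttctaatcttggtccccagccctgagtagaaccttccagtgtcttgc
Fcgr4, chr1:171018676-171018925, plus strand: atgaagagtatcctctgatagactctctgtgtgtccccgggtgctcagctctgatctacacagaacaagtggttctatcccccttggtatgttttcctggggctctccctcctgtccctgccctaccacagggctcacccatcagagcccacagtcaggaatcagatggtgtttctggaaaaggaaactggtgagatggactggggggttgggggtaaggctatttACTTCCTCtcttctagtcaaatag
Fcgrt, chr7:45103823-45104072, minus strand: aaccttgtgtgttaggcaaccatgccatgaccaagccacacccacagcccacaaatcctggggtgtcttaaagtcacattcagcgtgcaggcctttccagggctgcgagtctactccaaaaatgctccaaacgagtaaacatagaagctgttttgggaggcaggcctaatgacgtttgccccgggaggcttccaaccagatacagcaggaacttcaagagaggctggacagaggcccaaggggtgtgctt
The Fcgr1 match begins 109 bases before the start and the Fcgr4 match 24 bases before it. Among 32851 RefSeq windows of the same length, 7.02% held the STAT motif with the 3-base spacer, 5.85% held that with the 4-base spacer and 2.44% held GAGGAAGT. The Fcgrt window held none of these letter patterns. A match describes the sequence and was not tested for binding. The last bases of the Fcgr4 and Fcgrt windows fall within the first exon in GENCODE, whose starts for these genes lie slightly upstream of the RefSeq starts.

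Library totals ran from 23697620 to 37874426 estimated counts. Normalized counts are the rounded counts scaled between libraries by TMM, and each difference is a log2 fold change of EV over sham from edgeR's quasi-likelihood test with its standard error (SE). All 10 eosinophil markers checked were present, 7 of them higher with EVs and none lower. Of 12 macrophage or monocyte markers, which include genes that eosinophils also express such as Adgre1, 10 were lower with EVs, with log2 fold changes from -1.31 to -3.38, and Adgre1 and Ly6c2 were higher. The summed level of the 12 ran from 57204 to 73484 in sham and from 67206 to 73005 in EV libraries, and none was at 0 throughout. Much of that sum came from Adgre1 and Ly6c2, with means of 21326 and 10910 in sham and 32764 and 27641 with EVs. The sum therefore does not show the fall of the 10 lower markers. In bulk RNA, fewer cells of a type cannot be told apart from less RNA per cell.

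Fcgr3, the activating low-affinity IgG receptor, had the highest level of the Fc receptors per length of transcript. Its normalized counts were 20766, 18623 and 19547 in the sham libraries and 19899.9, 18655 and 20087 with EVs. These ranges overlapped, and the means of 19645 ± 1075 and 19547 ± 779 (SD, n = 3 each) gave a log2 fold change of -0.0073 (SE 0.059, adjusted p = 0.940, edgeR). The 95% interval ran from -0.14 to 0.12.

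Fcgr2b, the inhibitory IgG receptor, had 15731, 12688 and 13091 normalized counts in sham and 17051, 15760.0 and 16380.5 in EV libraries. Each EV value lay above each sham value, the closest pair being EV replicate 2 and sham replicate 1. The means were 13837 ± 1653 and 16397 ± 645 (SD, n = 3 each), and the log2 fold change of 0.24 (SE 0.081, 95% interval 0.063 to 0.43) did not pass the threshold (adjusted p = 0.0396, edgeR). Without sham replicate 1 the log2 fold change was 0.35 and passed (adjusted p = 0.000722, edgeR). It was 0.19 without sham replicate 2 (adjusted p = 0.122, edgeR) and 0.097 with scaling by library size alone (adjusted p = 0.356, edgeR). Of the 31-base words in the Fcgr3 transcripts, 14.3% also occur in Fcgr2b, so some reads of this pair could be assigned to either gene.

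Fcgr4, an activating receptor for the mouse IgG2 subclasses, was measured at 125, 168 and 149 normalized counts in sham cultures and at 42.0, 52.3 and 49.6 with EVs. The highest EV value was under the lowest sham value by more than the range within either group. Means of 148 ± 21.4 and 48.0 ± 5.36 (SD, n = 3 each) corresponded to a 3.06-fold lower level (log2 fold change -1.62, SE 0.27, adjusted p = 0.00111, edgeR). The deposited counts behind these values, rounded, were 139, 137 and 123 in sham and 42, 61 and 57 with EVs. Only 1.39% of its 31-base words are shared with another gene.

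Fcgr1, the high-affinity IgG receptor, was low and variable. Its normalized counts were 78.4, 223 and 163 in sham and 76.9, 113 and 109 with EVs. Sham replicate 1 fell within the EV range, and the other sham libraries lay above it. The means were 155 ± 72.7 and 99.6 ± 19.8 (SD, n = 3 each), with a log2 fold change of -0.63 (SE 0.36, 95% interval -1.43 to 0.18) that did not pass (adjusted p = 0.213, edgeR). Leaving out sham replicate 1 gave -0.94 (adjusted p = 0.0190, edgeR) and leaving out sham replicate 2 gave -0.26 (adjusted p = 0.607, edgeR), and neither passed.

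Fcgrt was lower in each EV library. It had 257, 295 and 379 normalized counts in sham cultures and 71.9, 71.1 and 57.4 with EVs. The group ranges were far apart, and the means of 310.4 ± 62.5 and 66.8 ± 8.15 (SD, n = 3 each) gave a 4.64-fold lower level (log2 fold change -2.21, SE 0.22, adjusted p = 3.47e-05, edgeR). B2m, the light chain with which FcRn is assembled, was higher: 9214, 10405 and 10428 normalized counts in sham against 15463, 16335 and 15374 with EVs (log2 fold change 0.65, SE 0.064, adjusted p = 3.09e-05, edgeR). B2m also pairs with the class I major histocompatibility heavy chains. The heavy and light chain transcripts of FcRn thus changed in opposite directions.

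**Figure D1:**
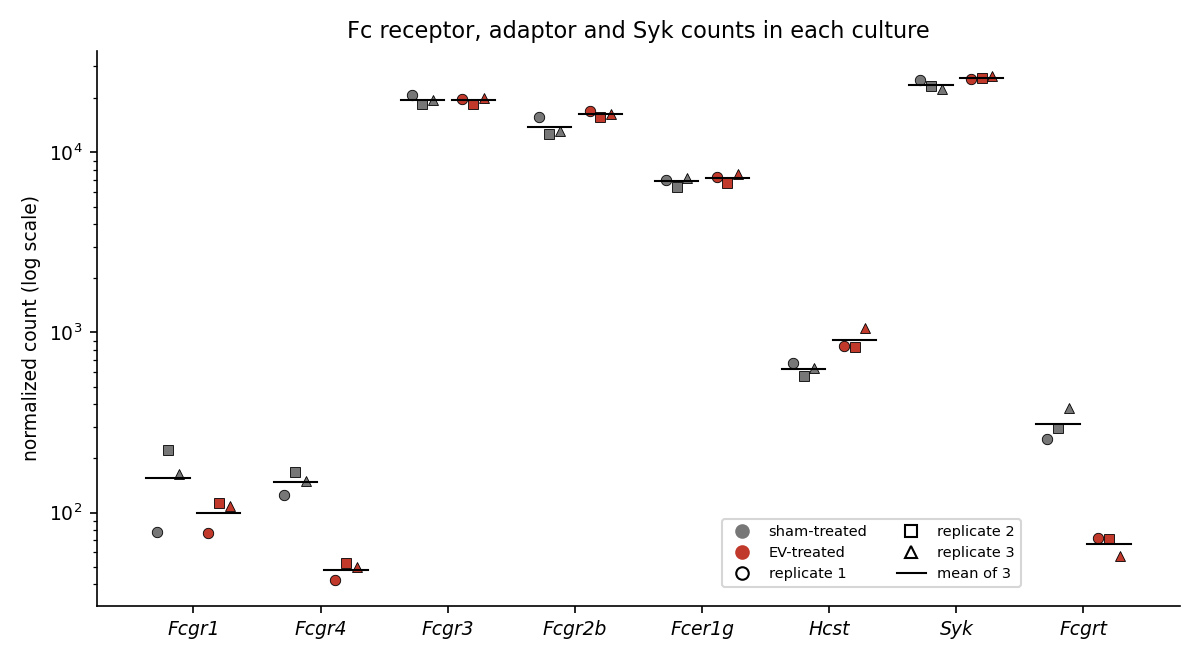
Normalized counts (log axis) of the 8 Fc receptor and adaptor genes in each library, with sham-treated and EV-treated eosinophils side by side; points are libraries (n = 3 per group), with a shape per replicate number, and horizontal lines are group means. The groups separate for Fcgr4 and Fcgrt, with lower EV values, and for Hcst, Fcgr2b and Syk, with higher EV values, and they overlap for Fcgr1, Fcgr3 and Fcer1g.

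Fcer1g, the ITAM-bearing chain shared by the activating receptors, stayed within overlapping ranges. Its normalized counts were 7034, 6449 and 7253 in sham and 7341, 6757 and 7626 in EV libraries. The means were 6912 ± 416 and 7241 ± 443 (SD, n = 3 each), with a log2 fold change of 0.067 (SE 0.069, 95% interval -0.087 to 0.22, adjusted p = 0.493, edgeR). With profiles over the 6 libraries centred on their means, the genes closest to Fcer1g among 10453 were Snx11, Rps15a, Ppp2r3c, Rps20 and Bud13. Their root mean square distances from Fcer1g ran from 0.0131 to 0.0333 on the log2 scale. None of these 5 passed the test, which their choice by closeness to Fcer1g made likely beforehand.

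Syk, the kinase that docks on the phosphorylated ITAM, was abundant in both groups. It had 25128, 23325 and 22359 normalized counts in sham and 25444, 25999 and 26574 with EVs. The ranges did not overlap, but the gap between EV replicate 1 and sham replicate 1 was small. With means of 23604 ± 1405 and 26006 ± 565 (SD, n = 3 each), the log2 fold change was 0.14 (SE 0.057, 95% interval 0.013 to 0.27), and it did not pass (adjusted p = 0.0836, edgeR). Without sham replicate 1 it was 0.19 and passed (adjusted p = 0.00696, edgeR), whereas scaling by library size alone gave -0.0088.

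Hcst, the DAP10 adaptor, was the member that rose. Its normalized counts were 674, 571 and 638 in sham and 846, 836 and 1055 in EV libraries. All EV values were above all sham values, and EV replicate 3 was the highest. The means of 628 ± 52.2 and 912 ± 124 (SD, n = 3 each) corresponded to a 1.45-fold higher level (log2 fold change 0.54, SE 0.12, 95% interval 0.27 to 0.81, adjusted p = 0.00583, edgeR). This call was lost when any 1 library other than sham replicate 1 was left out. The adjusted p was then 0.0181 and 0.0170 without sham replicates 2 and 3, and 0.0112, 0.0131 and 0.0372 without EV replicates 1, 2 and 3 (edgeR). The log2 fold change stayed between 0.43 and 0.60 in these fits. The call was also lost when libraries were scaled by their totals alone (log2 fold change 0.39, adjusted p = 0.0232, edgeR). Klrk1, which encodes NKG2D, the best known receptor that uses Hcst, had no counts in any library.

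The calls among the members were read against all genes tested. Of 13498 genes, 23.7% passed, 12.1% higher (1632 genes) and 11.6% lower (1572 genes). With scaling by library size alone the split was 1036 higher and 2342 lower. Under the TMM scaling used here, 3 of the 8 members passed (37.5%), 1 higher and 2 lower. The groups did not overlap for 5 of the 8 members (62.5%), 3 higher and 2 lower, against 49.6% of all genes tested, 24.8% higher and 24.7% lower. The median log2 fold change was 0.03 for the members and -0.01 for all genes. Changes of at least 1 in size on the log2 scale with a passing test made up 3.1% of all genes on the higher side, with no member among them, and 6.35% on the lower side, with Fcgr4 and Fcgrt among them.

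**Figure D2:**
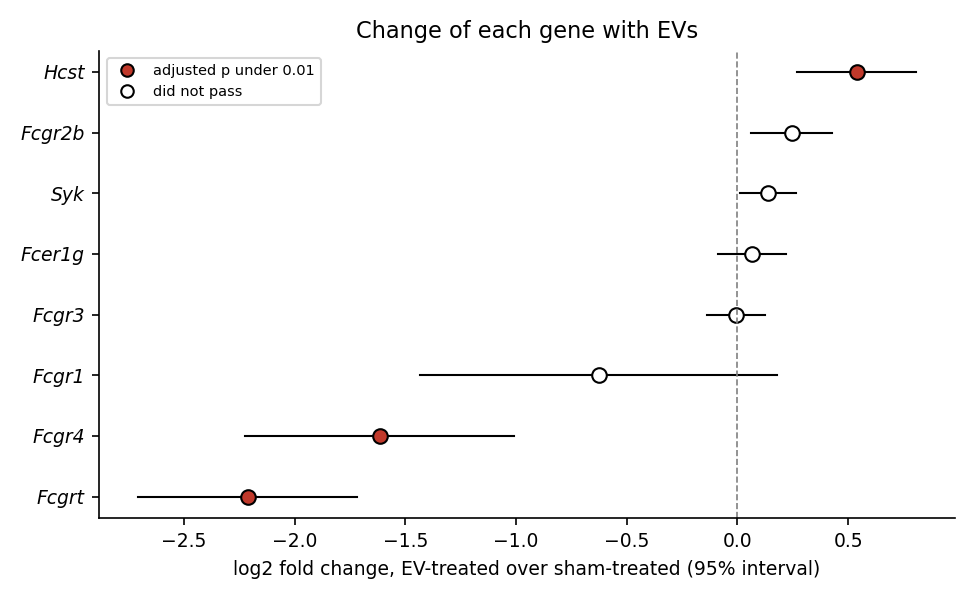
Log2 fold change (EV over sham) of each of the 8 members from edgeR; points are estimates from 3 sham and 3 EV libraries, filled in red where the adjusted p was under 0.01, and bars are 95% intervals. Fcgrt (-2.21) and Fcgr4 (-1.62) lie to the left of 0, Hcst (0.54) lies to the right, and the interval of Fcgr1 is the widest.

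Between genes, levels were compared per kb of the longest coding transcript. In sham cultures Fcgr3 stood at 14585, Fcer1g at 10120, Syk at 4401, Fcgr2b at 3904, Hcst at 1420, Fcgrt at 175, Fcgr4 at 117 and Fcgr1 at 59.8 normalized counts per kb. The sham ranges of Syk and Fcgr2b overlapped, and with the median transcript length Fcgr2b came to 9103 per kb, above Syk. With EVs the 5 abundant members had the same order of means on the longest transcript, at 14512, 10602, 4849, 4627 and 2064 per kb, and the ranges of Syk and Fcgr2b again overlapped. On the median length Fcgr2b with EVs came to 10788 and Fcer1g to 10673 per kb, against 9103 and 10187 in sham, with overlapping ranges in both groups. Fcgrt, Fcgr4 and Fcgr1 then stood at 37.8, 38.2 and 38.5 normalized counts per kb, and their ranges overlapped, whereas in sham cultures they did not. With the median transcript length Fcgrt came to 56.3 per kb with EVs, and its range lay above those of Fcgr4 and Fcgr1.

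Ratios within a library do not depend on scaling between libraries. The log2 ratio of activating Fcgr3 to inhibitory Fcgr2b was 0.40, 0.55 and 0.58 in sham and 0.22, 0.24 and 0.29 in EV libraries. The linear ratio of counts, not corrected for transcript length, therefore went from 1.42 to 1.19. This was a difference of -0.26 on the log2 scale (SE 0.06) with no overlap. An exact two-sided permutation test gave p = 0.1, the smallest that 3 against 3 allows. Reads from sequence shared by Fcgr3 and Fcgr2b could be assigned to either gene, which limits this ratio.

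For Fcgr4 to Fcgr2b the log2 ratio was -6.97, -6.23 and -6.45 in sham and -8.65, -8.22 and -8.35 with EVs, a difference of -1.86 (SE 0.25, exact permutation p = 0.1). For Fcgr1 to Fcgr2b the values overlapped, with a difference of -0.78 (SE 0.58, exact permutation p = 0.3). Among adaptors, Fcer1g to Tyrobp was -1.70, -1.82 and -1.72 in sham and -1.90, -2.10 and -2.02 with EVs, a difference of -0.26 (SE 0.067, exact permutation p = 0.1). The ratio of Hcst to Tyrobp overlapped between groups, at -5.08, -5.31 and -5.23 in sham and -5.02, -5.11 and -4.87 with EVs (difference 0.21, SE 0.097, exact permutation p = 0.2).

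**Figure D3:**
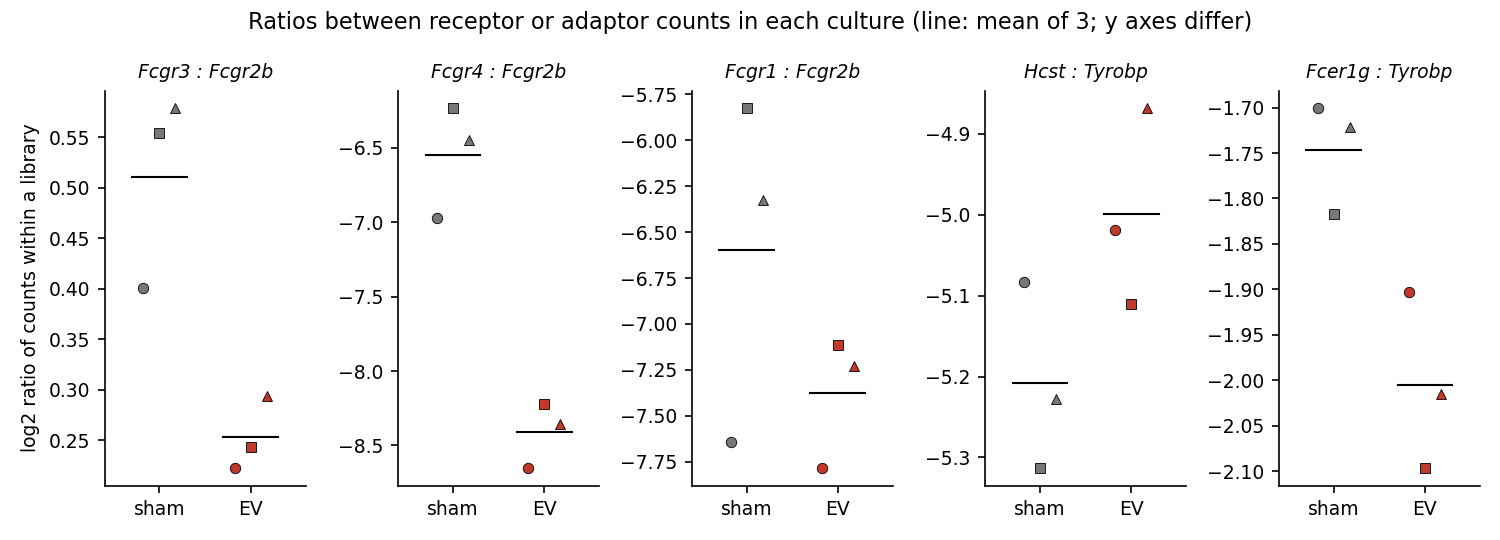
Log2 ratio of counts between gene pairs within each library; points are libraries of sham-treated (grey) and EV-treated (red) eosinophils (n = 3 per group), with a shape per replicate number, lines are group means and each panel has its own y axis. The groups separate for Fcgr3 to Fcgr2b, Fcgr4 to Fcgr2b and Fcer1g to Tyrobp, with lower EV ratios, and overlap for Fcgr1 to Fcgr2b and Hcst to Tyrobp.

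Beside the lower Fcgr4 and Fcgrt, 10 of the 12 macrophage or monocyte markers were lower and 2, Adgre1 (log2 fold change 0.62) and Ly6c2 (1.34), were higher. The summed normalized counts of the complement genes C1qa, C1qb and C1qc were 5804, 11290 and 9802 in sham and 911, 1842 and 1920 in EV libraries. Sham replicate 1 was the lowest sham library for 10 of the 12 markers, and EV replicate 1 was the lowest EV library for 10 of the 12. Fcgr1 and Fcgr4 were lowest in these same libraries, and Fcgrt was lowest in sham replicate 1 and EV replicate 3. The part of these cells in the lower Fcgr4 and Fcgrt levels was not tested.

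**Figure D4:**
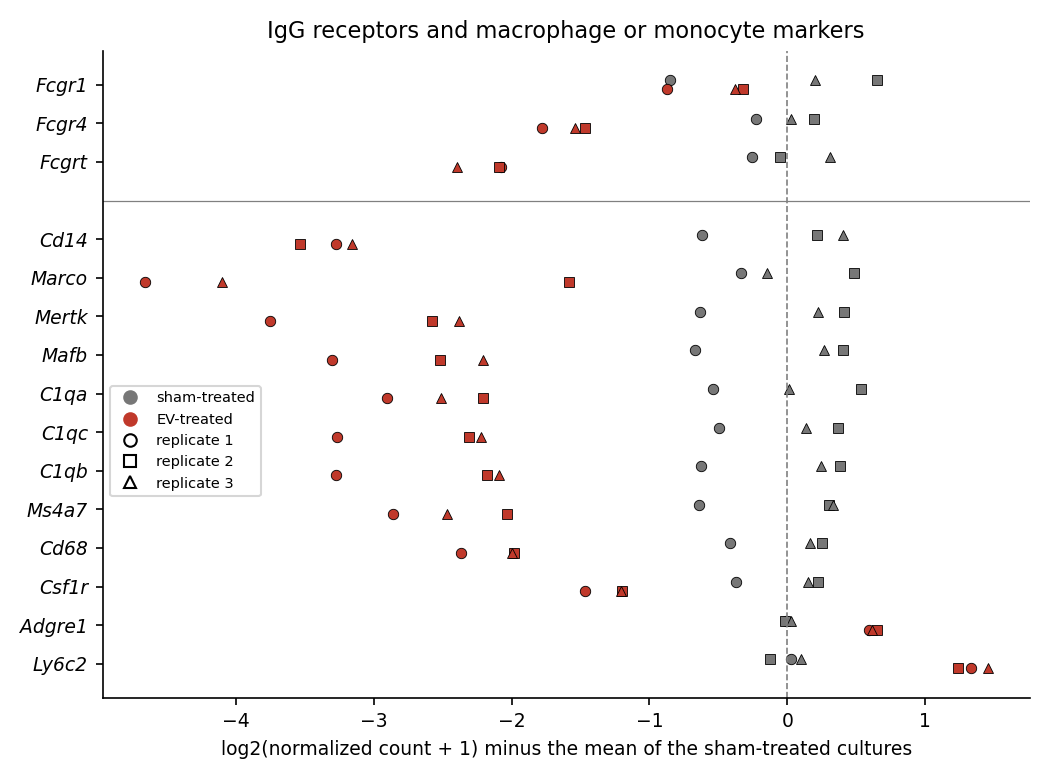
Log2 of the normalized count plus 1, less the mean of the sham libraries, for Fcgr1, Fcgr4 and Fcgrt and the 12 macrophage or monocyte markers; points are libraries of sham-treated (grey) and EV-treated (red) eosinophils (n = 3 per group), with a shape per replicate number. For 10 markers the EV libraries lie below the sham libraries, as for Fcgr4 and Fcgrt, while Adgre1 and Ly6c2 lie above.

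Of the other Fc receptor genes, 6 of 11 were tested, 2 passed as higher with EVs and none as lower. Of all genes tested, 12.1% passed as higher and 11.6% as lower. Without passing, Fcrl1 and Fcrla pointed down (log2 fold changes -3.08 and -0.77, both at low counts) and Fcrls pointed up (0.60). Ms4a2, the beta chain of the high-affinity IgE receptor, had 192, 82.1 and 77.8 normalized counts in sham and 900.1, 697 and 628 with EVs (log2 fold change 2.64, SE 0.32, adjusted p = 0.000124, edgeR). Fcer1a, the IgE-binding alpha chain that assembles with Ms4a2 and Fcer1g, had 74.8, 61.3 and 29.2 in sham and 231, 137 and 121 with EVs. The difference of 1.55 on the log2 scale (SE 0.39) just missed the threshold (adjusted p = 0.0106, edgeR). Trim21, a cytosolic Fc receptor, was higher by 0.74 on the log2 scale (SE 0.11, adjusted p = 0.000473, edgeR).

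The 95% intervals on the log2 scale were 1.92 to 3.35 for Ms4a2 and 0.69 to 2.42 for Fcer1a, which overlap, and a difference between the chains was not tested. Of 6 tested mast cell or basophil markers, a list that holds both Fcer1a and Ms4a2, 4 were higher with EVs and none was lower. Besides Ms4a2, the higher ones were Mcpt8, Cpa3 and Gata2, at 2.46, 1.30 and 1.07 on the log2 scale, and Kit stood at -0.23 on the log2 scale (adjusted p = 0.355, edgeR). The summed level of the list was 4101 to 5233 normalized counts in sham and 9891 to 11712 in EV libraries. Most of it came from Gata2 and Cpa3, with means of 2464 and 1427 in sham and 5187 and 3522 with EVs. Tpsb2, which had too few counts to be tested, was at 0 in each sham library and at 3.00, 1.71 and 1.74 with EVs. The part of such cells in the Ms4a2 level was not tested.

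The kinases, adaptors and effectors downstream were taken from lists of genes known to act in ITAM signaling. Of 9 kinases tested, 4 were higher, 1 was lower and 4 did not pass, with a median log2 fold change of 0.34. Btk, which activates phospholipase C gamma, rose by 0.76 (SE 0.058, adjusted p = 5.99e-06, edgeR), and the Src family kinase Fgr rose by 0.95 (SE 0.066, adjusted p = 3.22e-06). Fyn was the lower one, at -1.07 on the log2 scale (SE 0.21, adjusted p = 0.00325), a call lost without EV replicate 1 (adjusted p = 0.0139) or EV replicate 3 (adjusted p = 0.0221). Lyn, the Src family kinase best known for phosphorylating Fc receptor chains, stood at 0.019 on the same scale (SE 0.055, adjusted p = 0.824, edgeR).

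Of 15 adaptors, 7 were higher and 2 lower, with a median log2 fold change of 0.33. Tyrobp, which encodes the ITAM adaptor DAP12, had 22871, 22722 and 23916 normalized counts in sham and 27451, 28891 and 30829.6 with EVs (log2 fold change 0.33, SE 0.057, adjusted p = 0.00143, edgeR), a call lost with scaling by library totals alone (adjusted p = 0.0201). Lcp2, the SLP-76 scaffold, rose from a mean of 5478 ± 197 to 13099 ± 217 (SD, n = 3 each). Blnk, a related scaffold, was lower, at 432 ± 177 in sham and 78.8 ± 16.6 with EVs (log2 fold change -2.45, adjusted p = 0.000218, edgeR). The adaptor Sh3bp2, which binds Syk, was lower, at -1.03 on the log2 scale (adjusted p = 0.000305).

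Of 23 effectors, 7 were higher, 1 was lower and 15 did not pass, with a median of 0.11. Pik3cd, a catalytic subunit of phosphoinositide 3-kinase, rose from 7707 ± 269 to 22405 ± 930 normalized counts (SD, n = 3 each; log2 fold change 1.54, adjusted p = 5.75e-08, edgeR). Plcg2, the phospholipase downstream of Btk, rose by 0.43 (adjusted p = 0.000902) and the transcription factor gene Nfatc2 by 0.76 (adjusted p = 9.51e-05). Vav2, a guanine nucleotide exchange factor, was the lower effector, at -1.61 on the log2 scale (adjusted p = 0.000532).

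Inhibitors of the pathway were split, with 5 of 16 higher, 4 lower and 7 not passing. Inpp5d, the phosphatase recruited by Fcgr2b, had 14826, 15278 and 14072 normalized counts in sham and 15946, 16280.3 and 16542 with EVs, with no overlap and a log2 fold change of 0.14 that did not pass (SE 0.053, adjusted p = 0.0622, edgeR). The tyrosine phosphatase gene Ptpn6 rose by 0.65 (adjusted p = 1.87e-05) and the adaptor gene Dok2 by 0.90 (adjusted p = 3.15e-06). Inppl1, the phosphatase most closely related to Inpp5d, was lower, at 1642 ± 565 in sham and 270.4 ± 8.72 with EVs (SD, n = 3 each; log2 fold change -2.60, adjusted p = 1.19e-05). Dok1 was also lower, at -0.76 on the log2 scale (adjusted p = 4.97e-05).

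Of the 8 genes listed as receptors, other than Fc receptors, that signal through Fcer1g or Hcst, 6 were tested. None of these 6 passed on the higher side, where 12.1% of all genes tested did. With so few genes, this absence carries little weight. That list is not complete, and it counts Clec7a, which can reach Syk without either chain (log2 fold change -0.13, adjusted p = 0.626, edgeR). Of the 6 tested, 3 were lower and 3 did not pass, with a median of -1.20, and 11.6% of all genes tested were lower. The C-type lectin receptor Clec4d had 2829 ± 772 normalized counts in sham and 220.2 ± 48.0 with EVs (SD, n = 3 each; log2 fold change -3.67, SE 0.23, adjusted p = 1.55e-06, edgeR). Clec4n, which encodes Dectin-2, was lower, at -1.37 on the log2 scale (adjusted p = 0.00259), a call lost without sham replicate 2 (0.0121), sham replicate 3 (0.0153) or EV replicate 3 (0.0127). Clec4e, which encodes Mincle, was lower, at -1.04 (adjusted p = 0.000263). These lectins are also expressed by macrophages, of whose 12 markers 10 were lower and 2 higher with EVs, and that part was not tested.

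Over all 7 lists, 77 of 87 genes were tested, and 26 were higher (33.8%, against 12.1% of all genes tested) and 11 lower (14.3%, against 11.6%). The remaining 40 did not pass, and the median log2 fold change was 0.13. The lists were chosen with earlier results of these data known, and the shares were not matched for level of expression. An enrichment of these lists was therefore not tested. As for Fcgr4 and Fcgrt, the part of macrophages or monocytes in the lower list genes, such as Blnk, Sh3bp2, Vav2 and Inppl1, was not tested.

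**Figure D5:**
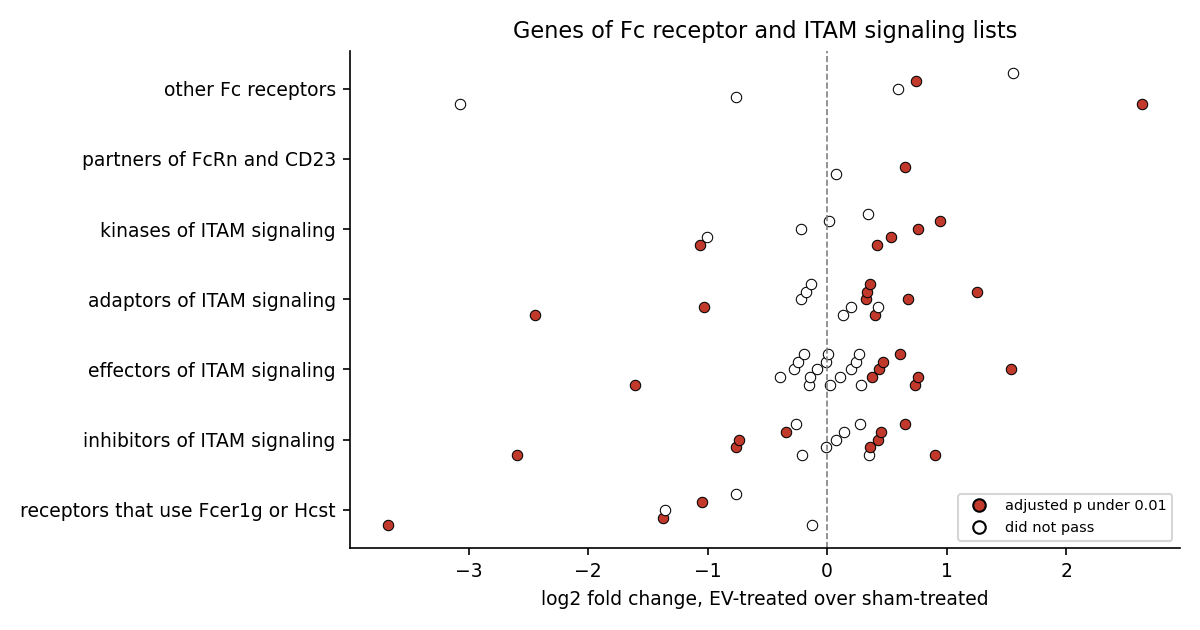
Log2 fold change (EV over sham) of the tested genes in 7 lists of Fc receptor partners and ITAM signaling genes; each point is a gene, filled in red where the adjusted p was under 0.01 and open otherwise, and Clnk, which had no counts in the sham libraries, is not drawn. Kinases, adaptors and effectors have most passing genes on the higher side. Other Fc receptors and the partners of FcRn and CD23 have all of theirs there. Inhibitors are split, and the receptors that use Fcer1g or Hcst have theirs on the lower side.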

How the data were processed

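Poly(A)-selected RNA of 3 sham- and 3 EV-treated eosinophil cultures was sequenced on an Illumina instrument. The authors trimmed reads with Cutadapt, checked them with FastQC, quantified them with Salmon and compared groups with DESeq2. The submitters' processing notes name mm10 (GRCm38), while annotation and strandedness are not given in the sources used here. The authors deposited estimated counts per gene, which need not be whole, and normalized counts, a non-negative signal scaled between samples. A deposited table of the authors' own comparison (mean counts, log2 fold changes with errors, a test statistic and p-values) was not used.

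Estimated counts were rounded, filtered with filterByExpr, scaled by TMM and tested with edgeR 4.0.16 (quasi-likelihood test, R 4.3.3) over 13498 genes, with Benjamini-Hochberg adjustment and a threshold of 0.01. Ratios used counts plus 0.5 and an exact permutation test. The edgeR, DESeq2 and limma fits were tried on simulated counts with far fewer changed genes than here, and the ratio tests were not. Alternatives were scaling by library size alone, no filter, DESeq2 1.42.0, limma 3.58.1 on the deposited normalized counts (log2, 1 added), a threshold of 0.05, the replicate number as a block and leaving out each library. Counting error is small at these depths, except for Fcgr1, Fcgr4, Fcgrt and other genes with few counts.

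The members and lists were chosen with earlier results of these data known. Named genes are the members, 9 of their best known partners, the up to 3 most changed passing genes of each pathway list (mean normalized count of at least 100), the 5 genes nearest to Fcer1g and cell type markers. Adgre1, Ly6c2, Kit, Mcpt8, Cpa3, Gata2, Tpsb2, Klrk1, Fcrl1, Fcrla and Fcrls were named after their values were seen. Loci and transcript lengths came from GENCODE vM21, promoters from RefSeq.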

Additional observations from a re-analysis of the deposited data

How the results depend on the processing

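Fcgr4 and Fcgrt stayed lower and past the threshold in every alternative run. The count of higher members (1) became 0 with library size alone, 2 with DESeq2, 2 at an adjusted p under 0.05, and 0 to 3 on leaving out 1 library. Of the 77 pathway genes, 11 were lower, against 19 with library size alone and 18 at 0.05. Over all genes, 1632 were higher, against 1036 with library size alone and 1071 to 1833 on leaving out 1 library, the lowest without EV replicate 3. The 1572 lower genes became 2342 with library size alone, 2478 at 0.05 and 1018 to 1698 on leaving out 1 library, with 1018 without EV replicate 3 and 1044 without EV replicate 2.

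Scaling by library size alone moved the median log2 fold change of all genes to -0.16. It turned the sign of Fcer1g (-0.082), Syk (-0.0088), Lyn (-0.13) and Inpp5d (-0.0062), none of which passed in either fit. Relative to that median Fcer1g stood at 0.081, Syk at 0.15 and Hcst at 0.55. Hcst (0.39, adjusted p = 0.0232, edgeR) and Tyrobp (0.18, adjusted p = 0.0201) no longer passed. Fcgr3 stood at -0.16 (adjusted p = 0.0418) and Fcgr2b at 0.097 (adjusted p = 0.356) under that scaling, which relative to the median is 0.0070 and 0.26. Fcgr3 turned to 0.0087 with no filter and lay between -0.044 and 0.041 on leaving out 1 library, positive without sham replicate 1 (0.041) and without EV replicate 2 (0.032). Fcgr2b passed with DESeq2 (adjusted p = 0.00827), as did Fcer1a (adjusted p = 0.000921), which also passed with no filter (0.00837), with limma (0.00846) and without sham replicate 1 (0.00776).

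Same-numbered samples correlated in their deviations from the group means at 0.117, 0.0846 and 0.0371, and 5 of 6 samples correlated best with their own number. The labels state no shared source, so the numbers were not taken as a pairing. With the replicate block, 2 members were higher, since Fcgr2b passed (adjusted p = 0.00639, edgeR), Fcer1a also passed (0.000735), and 1794 genes were higher and 1781 lower overall. Low counts limit Fcgr1, Fcgr4 and, with EVs (72, 83 and 66 counts), Fcgrt, and shared sequence limits the split between Fcgr2b and Fcgr3.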

Other observations

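Markers of other cell types were also measured. Of 8 neutrophil markers tested, Ly6g was higher with EVs and 4 were lower, and the summed level of the list was 17143 to 19542 normalized counts in sham and 15390 to 18964 in EV libraries. Of the T cell, B cell and dendritic cell lists, 2, 3 and 3 markers had enough counts to be tested, and none passed with edgeR. The summed level of the T cell list was 80.2 to 250 normalized counts in sham and 103 to 124 with EVs. Of the NK cell list, Eomes alone was listed, at 1.74 normalized counts or fewer in each library.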
